A study of Mus musculus with 32 samples.

Results

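Ribosomal protein pseudogenes are copies of ribosomal protein mRNAs that were reverse transcribed and inserted elsewhere in the genome. They usually lack introns and a promoter of their own, and many keep most of the coding sequence of the mRNA they came from. Ribosomal protein genes are among the mammalian genes with the most such copies, and in neurons the coding mRNAs are known to reach axons and dendrites. A short read from an mRNA can therefore match its gene and several pseudogenes equally well. The members described here are the genes whose symbol, in the authors' tables of neurite enrichment, starts with Rpl or Rps, carries -ps and has a biotype containing the word pseudogene. Of 245 genes named in this way 239 were members, out of 55573 genes in the count table. The biotype left out 5 protein coding genes and 1 lncRNA.

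The counts came from primary hippocampal neurons of newborn mice, grown for 15 days on porous inserts so that the soma stayed above the membrane and neurites grew through to its lower side. WT (C57BL/6) and Mettl3Flox/Flox cultures, the latter called Mettl3 KO here, all received an AAV with Cre and dTomato under the hSyn promoter. Both genotypes thus carry Cre. That promoter is meant to direct the deletion of Mettl3, the catalytic subunit of the m6A writer, to neurons. Which cells carried the deletion was not tested here. All cultures were silenced with 1 µM TTX and 50 µM D-AP5 for 16 h, and the KCl groups then received 55 mM KCl for 2 h whereas the Ctrl groups did not. Each of the 8 groups (genotype, fraction and treatment) had 2 RNA-seq libraries from separate litters, pups of a litter being pooled. Ctrl and KCl cultures were made from the same litter, and which library belongs to which litter is not given beyond the replicate number. The soma fraction can also hold neurites that did not cross the membrane.

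The members fell into 60 families by the gene named before -ps, here called the parent. The 101 members of the small (40S) subunit came from 23 parents and the 138 members of the large (60S) subunit from 37. The largest families were Rps12 with 21 members, Rpl31 with 18, Rps19 with 13, Rpl21 with 12, Rpsa with 11 and Rpl19 with 10. All but 9 members were annotated as processed pseudogenes, and those 9 as transcribed processed pseudogenes. They lay on 20 chromosomes, 155 of them between genes, 74 inside an intron of another gene and 10 over an exon of another gene (GENCODE M21, GRCm38). Their exons spanned a median of 466 bases, from 151 to 2871, and 234 members had a single exon.

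The sequences show how little separates many members from a coding gene. The first set, from RefSeq's GRCm38.p6, is shown because the Rps12 family spans the whole range of likeness. It gives coding bases 16 to 105 of Rps12, a small-subunit protein gene, and the same stretch of 3 members, with capitals where a member differs from Rps12. Rps12 was read from chr10:23786790-23786879 (minus strand), Rps12-ps3 from chr19:59322386-59322475 (plus), Rps12-ps19 from chr11:75071109-75071198 (minus) and Rps12-ps7 from chrX:151165740-151165829 (plus).
Rps12: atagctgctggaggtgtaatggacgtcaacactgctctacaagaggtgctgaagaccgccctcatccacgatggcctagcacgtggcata
Rps12-ps3: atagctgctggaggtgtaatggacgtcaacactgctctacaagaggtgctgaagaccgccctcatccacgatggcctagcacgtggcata
Rps12-ps19: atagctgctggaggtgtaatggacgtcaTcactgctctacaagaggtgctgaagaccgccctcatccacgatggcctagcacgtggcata
Rps12-ps7: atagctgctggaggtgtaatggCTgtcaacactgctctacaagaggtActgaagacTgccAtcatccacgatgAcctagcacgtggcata
Rps12-ps3 had 0 differences in these 90 bases, Rps12-ps19 had 1 and Rps12-ps7 had 6. Over the whole coding sequence Rps12-ps3 was identical to Rps12 (100%) and Rps12-ps19 had 97.2% identity. Rps12-ps7 had 89.9% over the 96.7% of it that could be aligned.

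Rps2 and its 2 copies with the largest rise in neurites are shown for the same reason, as coding bases 1 to 90 of Rps2 at chr17:24720276-24720365 (plus), with Rps2-ps8 at chr17:31644690-31644779 (minus) and Rps2-ps13 at chrX:52898588-52898677 (plus). Capitals again mark differences, of which there were 3 and 2.
Rps2: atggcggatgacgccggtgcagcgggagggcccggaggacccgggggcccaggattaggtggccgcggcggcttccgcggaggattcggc
Rps2-ps8: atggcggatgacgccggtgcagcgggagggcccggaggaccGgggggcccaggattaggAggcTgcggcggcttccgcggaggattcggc
Rps2-ps13: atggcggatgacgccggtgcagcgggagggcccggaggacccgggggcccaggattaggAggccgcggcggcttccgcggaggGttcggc

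Identity to the parent's coding sequence had a median of 97.5% over the 238 members with a coding parent (quartiles 94.5 and 99.0%). Reads were 50 bases long, so each member was also cut into all its 50-base words. A median of 31.8% of these words occurred unchanged in the parent's transcripts, with 13 members at 100% and 18 at 0%. A median of 49.0% occurred at only 1 place of the genome, and 23 members had no such word. The authors' counting kept fragments that map to several places and counted them in full at each, so a fragment could be counted for a gene and for several of its copies at once. The members are therefore not independent measurements, and their counts cannot be read as transcription of the copies themselves.

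Members with the same sequence show this most directly. Rps19-ps1 and Rps19-ps2, whose exons are identical, had counts of 4272 and 4278 in the first WT Ctrl soma library and 5153 and 5161 in the second WT Ctrl neurite library. Their mean counts over the 16 libraries were 4661 and 4665. Rpl35a-ps2, Rpl35a-ps3, Rpl35a-ps4 and Rpl35a-ps6 are likewise identical to each other and had mean counts of 2277, 2257, 2190 and 2223. The 5 identical members Rps12-ps11 to Rps12-ps15 stayed low, with mean counts between 9.62 and 16.3.

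The 16 libraries held 33789183 to 71394235 counts. Levels are given as CPM, a gene's count divided by the library's total after TMM scaling (edgeR's trimmed mean of M values) and put on a common scale that does not account for gene length. Neuron markers (8 genes) summed to 3358 to 3829 CPM in WT soma and to 4562 to 4920 in WT neurites. Astrocyte markers (6 genes) summed to 805 to 1182 in WT soma and 1569 to 2592 in WT neurites. Microglia markers summed to 9.80 to 15.2 in WT soma and 12.6 to 19.5 in WT neurites, oligodendrocyte lineage markers to 33.0 to 47.7 and 51.7 to 95.2, and fibroblast and vessel markers to 8.25 to 21.4 and 15.1 to 64.4. No marker found was at 0 in any library, but Cldn5 had no entry in the authors' tables. The neuron, astrocyte and oligodendrocyte lineage ranges did not overlap between the WT fractions and were higher in neurites, as the members were. Single markers differed. Map2 was at 464 to 627 CPM in WT soma and 1436 to 1830 in WT neurites. Syn1 and Rbfox3 were also higher in neurites without overlap, while Tubb3, Snap25, Slc17a7, Gad1 and Gad2 overlapped. Among the astrocyte markers Gfap was at 524 to 670 CPM in WT soma and 1219 to 1806 in WT neurites. Aldh1l1 was also higher in neurites without overlap, while Aqp4, Slc1a3, Gja1 and Sox9 overlapped. Mbp, the highest oligodendrocyte lineage marker in WT, was at 24.9 to 40.4 in soma and 39.1 to 87.2 in neurites. The study reports that Map2 mRNA localizes to neurites. Whether the sums reflect cell types or RNA localization was not tested, nor was the part of the glial lists in the results. Mettl3 was at 8.90 to 17.3 CPM in WT and 3.88 to 11.6 in Mettl3 KO libraries, ranges that overlap, and a count over the whole gene does not isolate the deleted exon. Some Mettl3 KO libraries stood apart. In KCl replicate 1, neuron markers summed to 1181 in soma and 710 in neurites (2722 to 4069 in the other 6 Mettl3 KO libraries), astrocyte markers to 8892 and 17476 (1552 to 5997), oligodendrocyte lineage markers to 2850 and 6141 (33.0 to 87.2), microglia markers to 128 and 91.2 (8.59 to 21.3) and fibroblast and vessel markers to 81.5 and 561 (9.58 to 27.0). Ctrl soma replicate 2 had few counts in ribosomal protein genes, and its neuron markers summed to 4069, its astrocyte markers to 1552 and its oligodendrocyte lineage markers to 58.7.

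The members together took 0.164 to 1.23% of a library's counts. In WT the share was 0.526 and 0.473% in Ctrl soma, 0.805 and 0.921% in Ctrl neurites, 0.577 and 0.456% in KCl soma, and 0.753 and 0.712% in KCl neurites. All 4 WT neurite libraries lay above all 4 WT soma libraries. The 77 coding ribosomal protein genes took 1.15 to 1.46% in WT soma and 1.84 to 2.18% in WT neurites. Set against them, the members received 39.3 to 40.1 counts per 100 coding counts in WT soma and 38.7 to 42.3 in WT neurites, ranges that overlap. In bulk libraries, fewer cells of a type and less RNA per cell cannot be told apart.

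**Figure D1:**
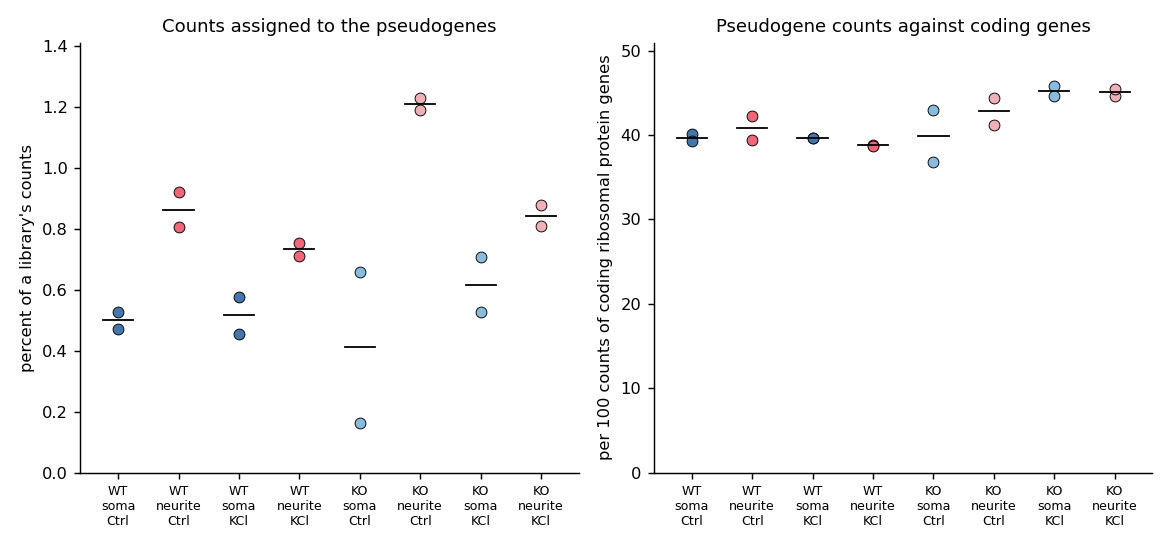
Left, percent of each library's counts assigned to the 239 pseudogenes, by group (each point a library, the line the mean of 2). Right, the same counts per 100 counts of the 77 coding ribosomal protein genes, where the 8 WT libraries sit between 38.7 and 42.3 in both fractions while the share on the left is higher in every WT neurite library than in every WT soma library.

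The first comparison asked which RNAs are more abundant in WT neurites than in soma without stimulation. Of the 239 members 235 averaged 10 or more counts over the 4 libraries (Rpl21-ps1, Rpl31-ps6, Rps12-ps26 and Rps15a-ps1 did not), and 161 were higher in neurites, while 0 were lower (edgeR's quasi-likelihood test, at least 1.5-fold and an adjusted p of at most 0.05 over all 23200 genes tested). Over all genes tested 10.6% were higher and 3.21% lower. The members' median log2 change was 1.00, against 0.88 for the 60 parents, of which 46 were higher, and 0.88 for the 77 coding genes, of which 61 were higher. The 3330 other pseudogenes tested had a median of 0.14, with 604 higher and 26 lower, and all genes a median of -0.02. In 215 members both neurite libraries lay above both soma libraries, and in 3 both lay below, where 31.3% of all genes tested had both above. Leaving out a library leaves its group with 1, which is then assumed to vary like the other group. Without WT soma Ctrl replicate 2 the count of members called was 99 (5.96% of all genes higher), and without WT neurite Ctrl replicate 1 it was 173 higher and 2 lower (14.9% of all genes higher and 9.14% lower). With all 16 libraries in 1 fit, which shares 1 estimate of the spread with the Mettl3 KO libraries, the count was 0. The share of all genes called in that fit is not given here, so this 0 does not set the members apart.

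Rps2, an abundant small-subunit protein, led the families. Rps2-ps8 was at 44.8 and 35.1 CPM in Ctrl soma and at 151 and 226 in Ctrl neurites. Its log2 change was 2.25 ± 0.21 (SE, n = 2 libraries per group, adjusted p = 0.000475), and that of Rps2 itself 1.91 ± 0.13 (adjusted p = 0.000198). Rps2-ps13 rose by 2.14 ± 0.18, Rps2-ps11 by 2.06 ± 0.22, Rps2-ps10 by 2.06 ± 0.16 and Rps2-ps5 by 2.01 ± 0.15 on the same scale. These 5 had the largest rises among the 172 members that averaged 100 or more counts in these libraries, and all belong to 1 family. Of the 9 Rps2 members 7 were called higher.

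The members with the highest mean counts also had changes near those of their parents. Rpl3-ps1, a copy of the gene of a core 60S protein with 99.8% identity over the coding sequence, had the highest mean count (14044) and was at 181 and 178 CPM in Ctrl soma and 300 and 382 in Ctrl neurites. The neurite libraries were both above the soma libraries, and its log2 change of 0.94 ± 0.13 stood beside 0.77 ± 0.10 for Rpl3. Rps6-ps4, whose 50-base words all occur in Rps6, was at 149 and 138 in soma and 208 and 225 in neurites. Its change of 0.61 ± 0.09 (adjusted p = 0.00346) passed 1.5-fold by little, that of Rps6 (0.57 ± 0.09, adjusted p = 0.00334) did not, and the call for Rps6-ps4 was lost without WT soma Ctrl replicate 2 (0.55) or WT neurite Ctrl replicate 2 (0.52).

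Rpl13-ps6 rose by 1.56 ± 0.11 (adjusted p = 0.000220), beside 1.45 ± 0.10 for Rpl13, and Rpl13-ps3 was called as well (adjusted p = 0.000198). Rps19-ps6 rose by 1.66 ± 0.15 and Rps19 by 1.41 ± 0.10. Rps7-ps3 rose by 1.05 ± 0.13 and Rps7 by 0.95 ± 0.10. The smaller changes went with parents of smaller change: Rpl15-ps3 0.76 ± 0.09, Rpl15-ps6 0.71 ± 0.09 and Rpl15 0.63 ± 0.09, and Rpl19-ps11 0.76 ± 0.11 and Rpl19 0.65 ± 0.10. All of these were called higher in neurites.

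At the other end, Rpl10a-ps2 (log2 change 0.14 ± 0.27, parent 0.50 ± 0.09), Rpl7-ps8 (0.18 ± 0.15, parent 0.30 ± 0.08) and Rpl36a-ps3 (0.19 ± 0.12) were among the 5 smallest changes of the 172 and were not called, and none of the 172 was called in the direction opposite to its parent.

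Across the 17 families with at least 5 members (153 members), the family's median log2 change was within 0.25 of the parent's in 13. The family median was highest for Rps2 (2.01, parent 1.91) and Rps12 (1.78, parent 1.51), followed by Rpsa (1.63, parent 1.54), Rpl31 (1.62, parent 1.53) and Rps19 (1.51, parent 1.41). Of these, 7 of 9, 16 of 20, 10 of 11, 16 of 17 and 11 of 13 tested members were called higher. Middle values belonged to Rpl9 (1.26), Rpl21 (1.24), Rpl23a (1.19) and Rpl36 (1.06), with 2 of 5, 7 of 11, 3 of 5 and 4 of 6 called. The lower end included Rpl17 (0.93), Rpl35a (0.77), Rpl7a (0.73), Rpl30 (0.67), Rps15a (0.66), Rpl15 (0.66) and Rpl19 (0.63).

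**Figure D2:**
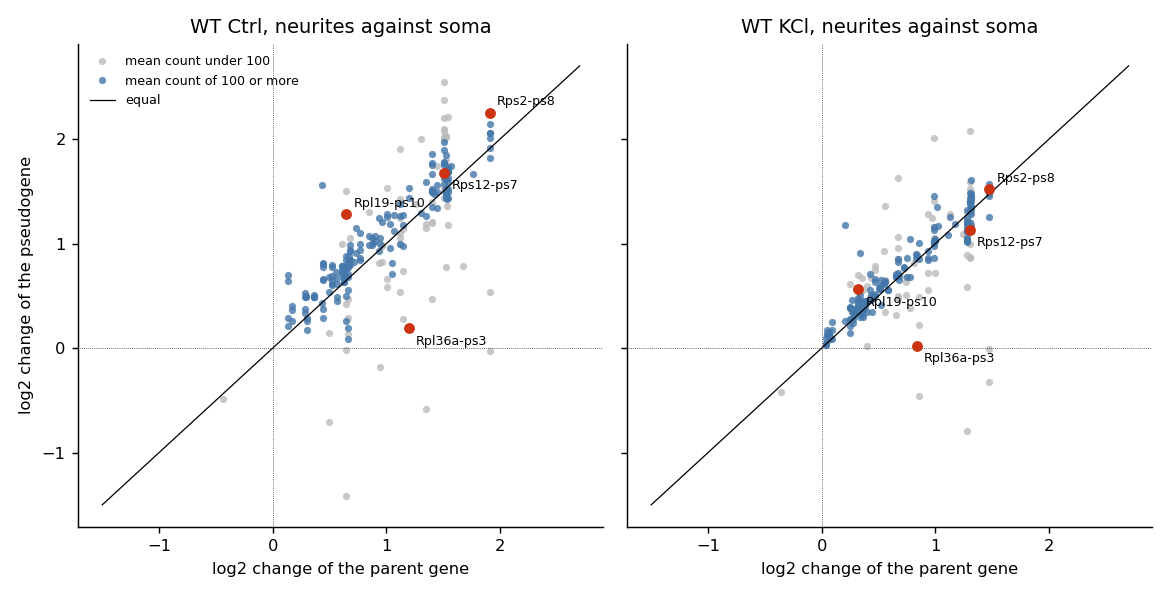
Log2 change of each pseudogene in neurites against soma (vertical) and of the parent gene in its name (horizontal), in WT Ctrl (left) and WT KCl (right). Most points lie along the line of equal change (Spearman's rho 0.90 and 0.93 over the 171 members averaging 100 or more counts, in blue, the others in grey). Rpl36a-ps3, in red, lies below the line. In WT Ctrl 2 of the 171 were more than 1 from the parent, the gaps of all 171 running from -1.01 to 1.12.

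Pairing each member with its parent, 146 members were called higher together with the parent, 15 were called where the parent was not, and 44 were not called where the parent was. The member's change minus the parent's had a median of 0.11 (quartiles -0.05 and 0.23, n = 235). For 161 of the 235 this gap was at most 0.25 and for 204 at most 0.5. Across the 171 members averaging 100 or more counts over all libraries, the changes of member and parent had a Spearman's rho of 0.90, a description only, since members share reads with the parent and with each other.

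The amount of shared sequence, which uses no counts, ordered how many counts a member received. Members with none of their 50-base words in the parent (18) had a median mean count of 16.1, those with up to 25% (88) had 102, those with up to 75% (92) had 1037 and those above 75% (41) had 2889. Expressed per 100 counts of the parent, the medians of these classes were 0.15, 1.16, 13.9 and 44.3. Over all 239 members the share of words and the counts per 100 parent counts had a Spearman's rho of 0.82 and a Pearson's r of 0.56. This ratio compares counts assigned to genes of different length and is no ratio of RNA levels.

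**Figure D3:**
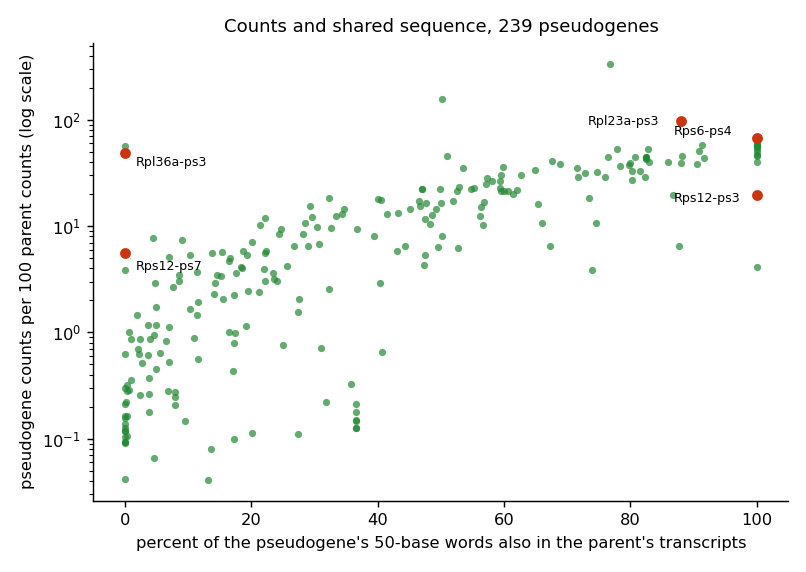
Counts of each pseudogene per 100 counts of its parent, summed over the 16 libraries (log scale), against the percent of its 50-base words that also occur in the parent's transcripts. The ratio rises from a median of 0.15 at no shared word to 44.3 above 75%, and Rpl36a-ps3 (in red, upper left) has high counts with no shared word.

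In WT Ctrl, members without a shared word were called higher in neurites in 2 of 15 tested (13.3%), near the 10.6% of all genes tested. In the classes of rising share 53 of 87, 72 of 92 and 34 of 41 were called higher. In WT KCl, where 6.16% of all genes tested were higher, the counts were 3 of 17, 31 of 88, 36 of 90 and 8 of 41. Calls thus did not follow the order of the classes there. In WT Ctrl the median distance from the parent's log2 change, in either direction, was 0.90 without a shared word and 0.20, 0.13 and 0.14 in the others. Low counts come with a wider spread, so depth and sequence cannot be told apart here. Of the 7 tested members with a log2 change under 0, all with mean counts under 100, 5 had no word in common with the parent (Rpl10a-ps3, Rpl19-ps3, Rpl19-ps5, Rpl23a-ps2 and Rps7-ps2).

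In 33 members at least 90% of the words occur at a single place of the genome, Rps12-ps7 (described below) among them. No reads were examined, so whether the fragments counted for these members came from the copies was not tested. The mean counts of these 33 members had a median of 28.4 and reached 723. Of 31 tested in WT Ctrl, 11 were called higher (35.5%) and 0 lower, where 10.6% of all genes tested were higher and 3.21% lower. Their median log2 change was 1.20, with a range from -1.41 to 2.21. The largest count among them belonged to Rps19-ps10 (91.5% of words at 1 place), which rose by 1.86 where Rps19 rose by 1.41. It was chosen after its values were seen.

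For 6 members the sequence did not point to the gene in the name on the annotated strand. Each was compared with the coding sequences of 85 protein coding genes named Rpl or Rps. Of these, 5 are described. Rpl36a-ps3 at chr6:136488812-136488901 (plus) is shown with Rpl36al at chr12:69183042-69183131 (minus) and with Rpl36a at chrX:134586080-134586169 (plus), coding bases 6 to 95, because it matched Rpl36al more closely than Rpl36a. Capitals mark differences from Rpl36al.
Rpl36al: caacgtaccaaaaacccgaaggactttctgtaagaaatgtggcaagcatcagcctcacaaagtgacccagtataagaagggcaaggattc
Rpl36a-ps3: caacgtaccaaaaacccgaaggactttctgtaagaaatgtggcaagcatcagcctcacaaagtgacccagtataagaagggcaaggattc
Rpl36a: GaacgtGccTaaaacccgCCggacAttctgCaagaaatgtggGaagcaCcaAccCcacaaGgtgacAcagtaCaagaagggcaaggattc
In this window Rpl36a-ps3 had 0 differences from Rpl36al and Rpl36a had 14. Over the coding sequence Rpl36a-ps3 was 99.7% identical to Rpl36al and 87.4% to Rpl36a.

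The values of this member went with the gene of like sequence. Rpl36a-ps3 was at 28.3 and 23.3 in soma and at 29.2 and 29.2 in neurites, a change of 0.19 ± 0.12 (adjusted p = 0.291). Rpl36al changed by 0.17 ± 0.14 and Rpl36a by 1.20 ± 0.10. The same held with KCl, where Rpl36a-ps3, Rpl36al and Rpl36a changed by 0.02 ± 0.16, 0.01 ± 0.20 and 0.84 ± 0.18. The difference between Rpl36a-ps3 and either gene was not tested, since they can share fragments.

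**Figure D4:**
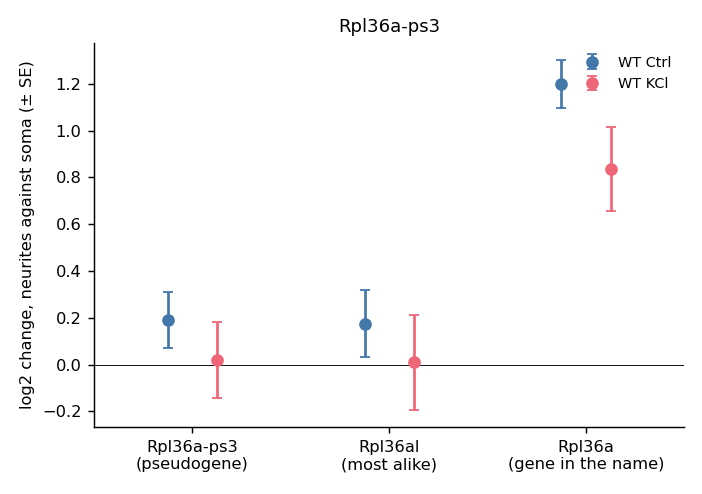
Log2 change in neurites against soma (± SE, n = 2 libraries per group) of Rpl36a-ps3, the coding gene most alike in sequence and the gene in the pseudogene's name, in WT Ctrl (blue) and WT KCl (red). Rpl36a-ps3 sits beside Rpl36al and below Rpl36a.

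The other 4 were of several kinds. Rpl13-ps1 matched Rpl13 at 92.0% identity over the whole coding sequence, but on the strand opposite to its annotation. With a kit that does not mark strand this does not keep reads of Rpl13 from it, and it rose by 1.34 ± 0.11, beside 1.45 ± 0.10 for Rpl13. Rps23-ps2 had 99.5% identity to Rps23 and was still closer to Rps23rg1, a gene on the opposite strand. In the annotation used for counting, 93.6% of the coding bases of Rps23rg1 lie under Rps23-ps2, and fragments over exons of both were not assigned. Rps23-ps2 rose by 0.71 ± 0.16 (adjusted p = 0.0190). Rps4l-ps was nearest to Rps4x, at 76.2%. Its parent Rps4l, the 1 parent not annotated as protein coding, was not among the 85, so a match to it could not be found. Rps7-ps2 shared no 20-base word with any of the 85 coding sequences and changed by -0.18 ± 0.29 where Rps7 rose by 0.95 ± 0.10.

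A few members received as many counts as the coding gene or more. Rps10-ps2 and Rps10-ps1 had mean counts of 1702 and 794, that is 339 and 158 per 100 counts of Rps10, whose mean count was 502. In the annotation used for counting, 92.1% of the coding bases of Rps10 lie under an exon of another gene, and by the options in the header fragments over exons of 2 genes were not assigned. The same was true of 55.3% of the coding bases of Rpl23a, whose copy Rpl23a-ps3 had 96.8 counts per 100 of the parent, and of 95.3% of those of Rpl36al, which had a mean count of 577 beside 1436 for Rpl36a-ps3. Rpl13a went the other way: 97.5% of its coding bases were overlapped, but its mean count was 2931 and its 1 member, Rpl13a-ps1, had 225. Of 59 coding parents 52 had no such overlap. The Rps10 copies rose in WT Ctrl neurites by 0.64 and 0.70 (Rps10-ps2 and Rps10-ps1), both called, while Rps10 changed by 0.13. The part of this overlap in the differences was not tested.

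In the Rps12 family, replicates of 1 member differed widely. Rps12-ps7, chosen after its values were seen, has all of its 50-base words at 1 place of the genome and none in Rps12, yet it had 369 and 509 counts in the soma and 2087 and 4 in the neurites of WT Ctrl, and 0 and 1239 in the soma and 1046 and 659 in the neurites of WT KCl. In Mettl3 KO it had 72 and 20 in Ctrl soma, 572 and 29 in Ctrl neurites, 103 and 76 in KCl soma, and 1 and 0 in KCl neurites. Replicates of WT Ctrl neurites and of WT KCl soma thus differed by far more than the means of the fractions, and its log2 change of 1.68 ± 1.24 in WT Ctrl neurites did not pass (adjusted p = 0.368).

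Rps12 itself varied in the same libraries. It had 20904 and 4119 counts in the WT Ctrl neurite libraries and 2619 and 11384 in WT KCl soma, the first number of each pair being replicate 1. Rps12-ps3, the copy that is identical to it over the coding sequence, had 2207 and 2088 in WT Ctrl neurites and 1038 and 974 in WT KCl soma. Rps12 therefore had 9.47 and 1.97 counts per count of Rps12-ps3 in the 2 WT Ctrl neurite libraries, 2.52 and 11.7 in WT KCl soma, and 4.52 and 7.80 in WT Ctrl soma. The 8 members of the family that averaged 100 or more counts, Rps12-ps3 among them and Rps12-ps7 left out, summed to 6170 and 5777 in WT Ctrl neurites. The 12 with lower counts summed to 429 and 189 there and to 78 and 252 in WT KCl soma, the order seen for Rps12 and Rps12-ps7. In the other WT groups the order was not the same: in WT Ctrl soma they summed to 172 and 100 where Rps12 had 5930 and 6900, and in WT KCl neurites to 261 and 288 where Rps12 had 11849 and 11165. The call of Rps12 in WT Ctrl neurites (1.51 ± 0.45, adjusted p = 0.0469) was lost with DESeq2 (adjusted p = 0.149) and with the replicate block (adjusted p = 0.0673), and its change was 0.46 without WT neurite Ctrl replicate 1, whereas Rps12-ps3 rose by 1.78 ± 0.19 (adjusted p = 0.000795).

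**Figure D5:**
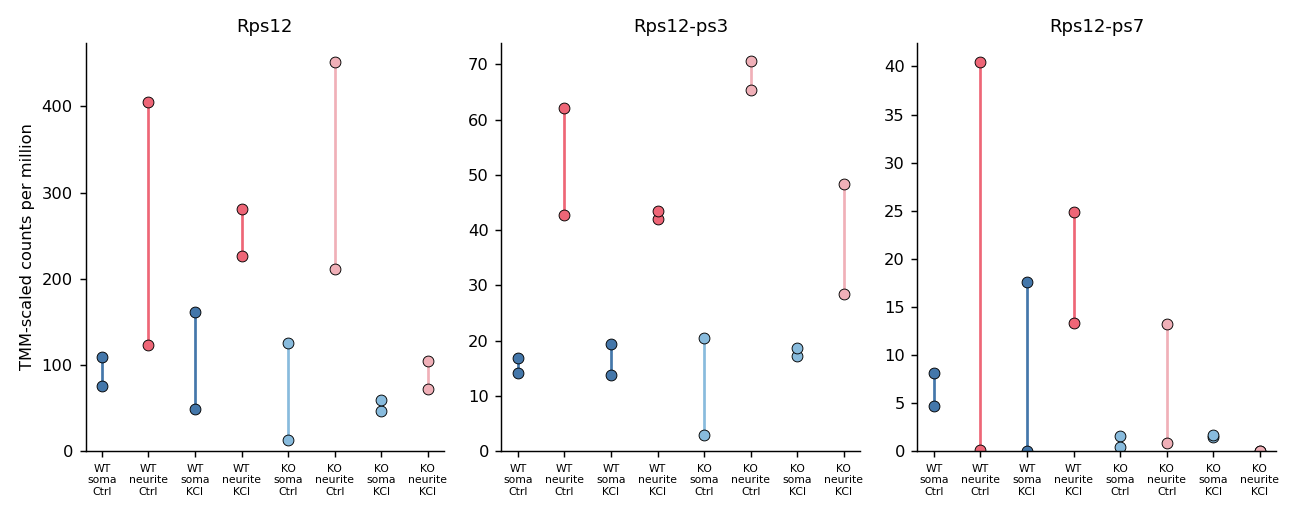
TMM-scaled CPM of Rps12 and of 2 of its pseudogenes in the 16 libraries (each point a library, the line joins the 2 libraries of a group). Rps12 and Rps12-ps7 differ widely between replicates of WT Ctrl neurites and WT KCl soma, where Rps12-ps3 differs less. The vertical scales differ between panels.

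The second comparison asked the same of neurons treated with KCl. In WT KCl neurites 78 of the 236 members tested were higher than in soma and 0 lower, where 6.16% of all 23028 genes tested were higher and 1.68% lower. The members' median log2 change was 0.68, that of the parents 0.55 (25 of 60 higher), that of the coding genes 0.55 (31 of 77 higher) and that of other pseudogenes 0.14 (299 of 3333 higher, 9 lower). Both neurite libraries lay above both soma libraries in 200 members (84.7%) against 26.4% of all genes. Leaving out 1 library gave medians of the members from 0.55 to 0.81. With all 16 libraries in 1 fit 0 members were called, and the share of all genes called in that fit is not given here.

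Of the 17 families, the 5 with the highest medians without KCl had the highest medians with it too. In the Rps2 family 7 of 9 members were called and the median was 1.48, beside 1.47 for Rps2. Rpsa (1.40, 10 of 11 called), Rps12 (1.31, 8 of 19 called), Rpl31 (1.12, 13 of 18 called) and Rps19 (1.06, 11 of 13 called) followed. No member of the Rpl15, Rpl17, Rpl19, Rpl30, Rpl35a, Rpl7a, Rpl9 or Rps15a families was called. Rps2-ps8 was at 50.6 and 39.0 CPM in KCl soma and 135 and 116 in KCl neurites, a log2 change of 1.52 ± 0.17 (adjusted p = 0.00163). Rpl3-ps1 was at 256 and 171 in soma and 262 and 268 in neurites, and its change of 0.35 ± 0.19 did not pass (adjusted p = 0.295).

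Whether KCl changed the enrichment was tested over the 8 WT libraries with a term for each treatment and replicate number, taken to stand for an insert. With calls at 1.5-fold and an unadjusted p no higher than 0.05, 2 of the 237 members tested had a higher and 1 a lower enrichment with KCl, where 2% of all 23200 genes tested were higher and 1.35% lower. The members' median difference was -0.27 on the log2 scale, that of the parents -0.22 and that of all genes 0.05. At an adjusted p of 0.05 the count of members was 0, and these 3 had an adjusted p of 0.999. The members with a larger enrichment were Rpl19-ps3 (2.28 ± 0.83) and Rps19-ps11 (1.64 ± 0.71), both with at most 46 counts in any library, and Rps2-ps11 had a smaller one (-0.72 ± 0.31). In a fit without these terms 6 members were called with all 8 libraries. Leaving out 1 library from that fit gave median differences of the members from -0.49 to -0.14. With the terms and RLE scaling 1 member was higher and 8 lower, and with the terms and DESeq2 0 were higher and 10 lower. The shares of all genes called in these alternative fits are not given here, so the counts do not set the members apart.

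In WT soma, KCl against Ctrl gave 0 calls among 229 members at 2-fold, in either direction, with edgeR and with DESeq2, where 4.21% of all 24060 genes tested were higher and 3.65% lower. The members' median log2 change was 0.19, that of the parents 0.19 and that of all genes 0.01. At 2-fold and an unadjusted p no higher than 0.05, 3 members passed, all with few counts, and 10.7% of all genes. Rpl31-ps6 (1.56 ± 0.45, adjusted p = 0.0543) had 10 and 7 counts in Ctrl soma and 22 and 22 in KCl soma, and Rps19-ps11 (-1.13 ± 0.47, adjusted p = 0.161) had 35 and 16 against 9 and 11. Leaving out 1 library gave medians of the members from 0.09 to 0.30.

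The Mettl3 KO libraries spread more widely, with a common biological coefficient of variation (edgeR, over all genes tested) of 0.408 between Ctrl replicates, against 0.130 in WT. Over the 171 members that averaged 100 or more counts, the log2 ratio of the replicates had a median of 0.17 in WT Ctrl soma and 2.42 in Mettl3 KO Ctrl soma. In Mettl3 KO Ctrl soma the members took 0.660% of the counts of replicate 1 and 0.164% of those of replicate 2, and the coding genes took 0.446% in the latter, the lowest of the 16 libraries. The difference was uneven: Rps19-ps6 (438 exon bases) was at 124 and 12.5 CPM in replicates 1 and 2, Rps16-ps2 (441 bases) at 100.3 and 8.84 and Rps18-ps3 (456 bases) at 107 and 9.60, while Rpl3-ps1 (1210 bases) was at 239 and 302 and Rpl3-ps2 (1214 bases) at 104 and 119. Across the 59 coding parents the log2 ratio of replicate 1 to 2 had a Spearman's rho of -0.54 with coding length, and across 171 members -0.51 with exon length, both descriptions. Rps16-ps2, Rps18-ps3 and Rpl3-ps2 were chosen after their values were seen. In WT Ctrl soma the same rho was -0.65 and -0.39.

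Between Mettl3 KO Ctrl neurites and soma 0 of 230 members were called with edgeR in either direction, as were 0% of all 22557 genes tested higher and 0% lower, and DESeq2 called 11 members. Without the filter on mean counts edgeR did call members, so the count of 0 depended on that filter. The shares of all genes called with DESeq2 or without the filter are not given here, so these calls do not set the members apart. With an unadjusted p no higher than 0.05 and 1.5-fold, 69 members passed, and 1387 (6.15%) of all genes. The members' median log2 change was 1.88, that of the parents 1.74 and that of all genes -0.06. Both neurite libraries lay above both soma libraries in 224 members (97.4%), against 23.7% of all genes. Without Mettl3 KO soma Ctrl replicate 2 the median was 1.05 with 0 called. Without replicate 1 it was 3.96 with 213 called, and 10.7% of all genes were higher and 1.83% lower. In that fit replicate 2 stands alone for the soma and has no spread of its own.

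With KCl, 0 of 224 members were called between Mettl3 KO neurites and soma by edgeR or DESeq2, and of all 23152 genes 0% were called in either direction. With an unadjusted p no higher than 0.05 and 1.5-fold, 11 members passed, and 0.518% of all genes. The members' median was 0.60 and that of the parents 0.53, and both neurite libraries lay above both soma libraries in 188 members (83.9%) against 11.1% of all genes. The 2 libraries of replicate 1 are those with low neuron markers and high astrocyte, oligodendrocyte lineage, microglia and fibroblast and vessel markers given above. Without the soma library of replicate 1 the members' median was 0.74 and without its neurite library 0.76, with 0 called in both, and the part of these markers in the values was not tested.

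Between Mettl3 KO and WT Ctrl soma 0 of 220 members were called with edgeR, as were 0% of all 23750 genes tested, higher or lower. DESeq2 called 1 member, and the share of all genes called by it is not given here. With an unadjusted p no higher than 0.05 and 1.5-fold, 4 members passed, and 11.6% of all genes. The median of the members was -0.47 and that of the parents -0.50. This value turned with 1 library: without Mettl3 KO soma Ctrl replicate 2 the median was 0.33, with 27 members higher and 2 lower (10% of all genes in each direction), and without replicate 1 it was -2.40, with 205 lower and 3 higher (21.8% of all genes lower and 17.3% higher). In both fits the Mettl3 KO group is 1 library, so these counts describe that library against WT. In the KCl libraries of Mettl3 KO the members received 44.6 to 45.9 counts per 100 counts of the coding genes. The Mettl3 KO Ctrl libraries had 42.9 and 36.8 in soma and 41.2 and 44.4 in neurites. Against the 38.7 to 42.3 of the 8 WT libraries, all Mettl3 KO KCl libraries and some Ctrl libraries were higher, and 36.8 was lower. These differences were not tested.

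The m6A sites that the study listed from DART-seq, which marks m6A by C-to-U editing next to it, touched few members. Of 18231 sites 10 lay in exons of 6 members, and all 10 were listed under the name of another gene, none under a member's. Rpl10a-ps4 held 3 (listed as Cd302), Rps13-ps4 2 (Taf1c), Rps6-ps3 2 (Rab39), and Rps12-ps9 (Dpep1), Rps15a-ps4 (Gmeb1) and Rps15a-ps6 (Nudcd3) 1 each. The listed C-to-U values, the authors' means over libraries, ranged from 0.602 to 8.77%. The highest were at chr2:60275455 in Rpl10a-ps4 and, at 8.65%, chr9:53689749 in Rps6-ps3, shown on the member's strand with 10 bases on either side and the edited base in capitals.
Rpl10a-ps4: gcctgaagaaCtacgaccctc
Rps6-ps3: gattcagcgaCttgttactcc
All 10 sites were on the member's strand, and each could be placed on the parent's coding sequence, where the base was also C. At 0 of these 10 parent positions was a site listed. By name, however, 26 of the 60 parents had a listed site. Of the parents of these members, Rps12 had 1, Rps13 1 and Rps15a 5, and Rpl10a and Rps6 had 0. In WT Ctrl neurites Rpl10a-ps4 changed by 0.53 ± 0.13, Rps6-ps3 by 0.45 ± 0.09, Rps13-ps4 by 0.37 ± 0.11 and Rps15a-ps4 by 0.37 ± 0.12, none of them called, and Rps12-ps9 rose by 1.67 ± 0.19 (adjusted p = 0.00108).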

How the data were processed

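RNA was profiled in 16 RNA-seq libraries (50 ng of RNA each, low-input kit without strand marks, paired 50-base reads). Per the file headers and the study's methods, the authors aligned with STAR (2.7.7a) to mm10 and made the deposited counts with featureCounts (2.0.1), Ensembl annotation 97, with multi-mapping fragments counted in full at each place. Gene symbols and biotypes came from the authors' DESeq2 tables, whose fold changes and p-values were not used. The deposited m6A sites carry a C-to-U fraction, averaged by the authors. The number at which STAR drops multi-mapping reads is not given in the sources used here.

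Counts were tested with edgeR 4.0.16 (TMM, quasi-likelihood, Benjamini-Hochberg) in R 4.3.3 on the 4 libraries of a comparison, keeping genes that averaged 10 or more counts. The KCl change in enrichment used the 8 WT libraries with a term per treatment and replicate number, taken to stand for an insert. Calls needed 1.5-fold (2-fold for KCl in soma) and an adjusted p of at most 0.05, the KCl change an unadjusted one. SE is the log2 change divided by the root of F. The code was tested on simulated data. DESeq2 1.42.0 was an alternative. Sequences were read from GRCm38.p6, coding sequences by GENCODE M21, and aligned with Biopython 1.88. Genes were named by rule: the 10 members with the highest mean count, the 5 largest and 5 smallest changes in WT Ctrl among members with a mean count of at least 100, up to 5 opposite to the parent (0 were), up to 5 with m6A sites, families of at least 5, and the parents. Members, lists and tests were chosen with earlier results of these data known. With 2 libraries per group, p-values measure the spread between libraries of separate litters, in which litter, insert and library preparation cannot be told apart. The main tests on 4 libraries had no term for insert or litter, so their groups were fitted as independent. Library totals of 33789183 to 71394235 counts set the depth. Results of some genes are not reported here.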

Additional observations from a re-analysis of the deposited data

Results flagged for a closer look

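The test of the KCl change in WT neurite enrichment picked out Rpl19-ps3 (difference of log2 changes 2.28), Rps19-ps11 (1.64) and Rps2-ps11 (-0.72), each at an unadjusted p of at most 0.05 and at none after adjustment over all genes. Rpl19-ps3 had 35 and 22 counts in WT Ctrl soma, 10 and 3 in Ctrl neurites, 10 and 27 in KCl soma and 22 and 20 in KCl neurites, so its KCl fractions overlapped. Rps19-ps11 had 35 and 16, 35 and 9, 9 and 11, and 34 and 24 counts in the same order. Rps2-ps11 had 345 and 234, 704 and 673, 296 and 327, and 506 and 572. Signal outside the RNA-seq comparisons was found in the 10 listed m6A sites inside exons of members.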

How the results depend on the processing

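With all 16 libraries in 1 fit, 0 members were called in WT Ctrl and 0 in WT KCl, where the 8 WT libraries alone (an alternative added after seeing the data) gave 146 and 85, and 1 member had a KCl change in enrichment. RLE scaling, DESeq2, no filter, a mean count of at least 100 and the replicate block kept the WT Ctrl and WT KCl counts within 1.5 times (block: 147 and 102). In Mettl3 KO Ctrl, DESeq2 called 11 and no filter 160. For KCl in WT soma, no filter called 1 and the replicate block 1. For Mettl3 KO against WT, DESeq2 called 1. The KCl change gave 9 members with RLE scaling, 10 with DESeq2, 7 with no filter, 0 at a mean count of at least 100, 6 with no replicate block and 0 at an adjusted p of at most 0.05. The shares of all genes called in these alternatives are not given here, so the counts alone do not set the members apart from other genes. Apart from the number of libraries or genes, the cause was not tested. Leaving out 1 library gave 99 to 175 calls in WT Ctrl, 59 to 122 in WT KCl, 0 to 213 in Mettl3 KO Ctrl, 0 to 5 for KCl in WT soma, 0 to 208 for Mettl3 KO against WT and 1 to 39 for the KCl change. The study paired the fractions of an insert, but whether the replicate number marks the insert is not given in the sources used here, and differences between the replicates in soma and neurites correlated at -0.11 in WT Ctrl, 0.06 in WT KCl, 0.04 in Mettl3 KO Ctrl and 0.87 in Mettl3 KO KCl. Of the 24 named members, 15 lost their call with all 16 libraries, as did 10 of 15 parents, and Rps6-ps4 also with the 8 WT libraries and in 2 of 4 left-out fits.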
